A study of Mus musculus with 20 samples.

Results

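The heat response of the testis 10 h after a heat shock was compared between the inbred mouse strains C57BL/6 and AKR/N, gene by gene, as the change of AKR/N minus the change of C57BL/6. Each change was the 10 h level minus the level in unheated controls of the same strain. The comparison rested on 8 of the 20 arrays of the series, 2 in each of 4 groups. These were AKR/N controls, AKR/N at 10 h, C57BL/6 controls and C57BL/6 at 10 h. The question was whether the AKR/N response came later, so the arrays taken at 8, 12 and 24 h after heat were set beside them. All animals were 8 weeks old, and the heated animals had been exposed to 43 °C for 15 min. Total RNA of whole testes was read on a mouse 3' oligonucleotide chip, on which sets of short probes measure the transcripts. The controls carry no sampling time, so heat and time of sampling cannot be told apart in a change from control. Whether replicate arrays represent different animals is not stated in the labels, and the p-values below measure only how far these arrays spread, which may be technical variation.

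Cells answer heat within minutes to hours by inducing heat shock proteins, chaperones that hold or refold damaged proteins, under the transcription factor HSF1. Immediate early genes such as Fos, Jun and Atf3 rise in the same wave, while targets of p53, which halts the cell cycle or starts cell death, and genes of repair and remodelling usually follow. The testis is kept below body temperature, and its meiotic and post-meiotic germ cells are known to be sensitive to heat, with the Sertoli cells that nurse them and the Leydig cells that make testosterone reacting in their own ways.

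At 10 h several classical heat shock genes had risen in both strains, while more genes were called as changed in C57BL/6 than in AKR/N and 5 genes differed between strains by test. The stress-induced chaperone Hspa1b stood at 3470 and 4960 in C57BL/6 and at 4400 and 4420 in AKR/N, from 58.1 and 39.1 and from 64.7 and 493 in the controls. Cyclin G1 (Ccng1), a p53 target, stood at 325 and 213 in C57BL/6 against 69.9 and 82.7 in its controls. In AKR/N, Ccng1 was at 118 and 144 at 10 h against 109 and 126 in controls, and at 424 and 332 by 12 h. This holds for the probe set tested, and the other probe sets of Ccng1 are given below. These values are signals, linear brightness values scaled alike on every array, and a signal of 17.5 was the level below which a probe set counted as dim.

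The sequences just before the transcription starts of 4 genes are shown for chaperones that rose in both strains and for genes that rose in C57BL/6 and were not called in AKR/N at 10 h. The windows hold the 250 bases before the start, 5′ to 3′ on the strand of the gene, from RefSeq on the build GRCm38.p6. Capitals mark the heat shock element cores GAANNTTC and TTCNNGAA, inverted repeats of the unit bound by HSF1. Each reads the same on both strands, and neighbouring copies can overlap. Hspa1b (chr17:34959239-34959488, minus strand) and Hspe1 (chr1:55087898-55088147, plus strand) were taken as chaperones. Aldh18a1 (chr19:40588464-40588713, minus strand) and Ccng1 (chr11:40755287-40755536, minus strand) were taken as genes that stayed near control in AKR/N at 10 h on the probe set tested.
Hspa1b: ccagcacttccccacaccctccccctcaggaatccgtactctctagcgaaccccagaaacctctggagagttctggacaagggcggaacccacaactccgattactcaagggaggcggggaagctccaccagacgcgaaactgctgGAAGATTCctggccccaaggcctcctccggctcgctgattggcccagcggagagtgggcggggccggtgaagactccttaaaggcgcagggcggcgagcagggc
Hspe1: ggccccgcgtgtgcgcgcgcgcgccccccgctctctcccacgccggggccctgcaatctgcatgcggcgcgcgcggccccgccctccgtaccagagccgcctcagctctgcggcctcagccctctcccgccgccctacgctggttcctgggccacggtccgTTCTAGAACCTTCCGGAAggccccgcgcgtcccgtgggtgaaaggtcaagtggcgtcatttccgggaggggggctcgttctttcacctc
Aldh18a1: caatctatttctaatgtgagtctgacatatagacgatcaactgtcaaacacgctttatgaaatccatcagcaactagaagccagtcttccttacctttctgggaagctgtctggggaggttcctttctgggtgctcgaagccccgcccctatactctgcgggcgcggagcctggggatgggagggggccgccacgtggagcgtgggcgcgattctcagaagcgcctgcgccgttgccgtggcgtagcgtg
Ccng1: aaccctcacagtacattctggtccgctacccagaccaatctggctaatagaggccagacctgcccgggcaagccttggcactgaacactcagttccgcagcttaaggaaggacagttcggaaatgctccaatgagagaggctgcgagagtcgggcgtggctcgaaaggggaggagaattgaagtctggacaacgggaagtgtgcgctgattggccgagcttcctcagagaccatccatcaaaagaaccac
The Hspa1b window held 1 GAANNTTC, beginning 104 bases before the start. The Hspe1 window held 1 GAANNTTC and 2 copies of TTCNNGAA that overlap it, beginning 89, 84 and 79 bases before the start. Neither motif lay in the windows of Aldh18a1 and Ccng1, which says only that these letters are not there. Of 32851 windows of this length, 6.69% held GAANNTTC, 7.17% held TTCNNGAA and 12.8% held either.

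**Figure D1:**
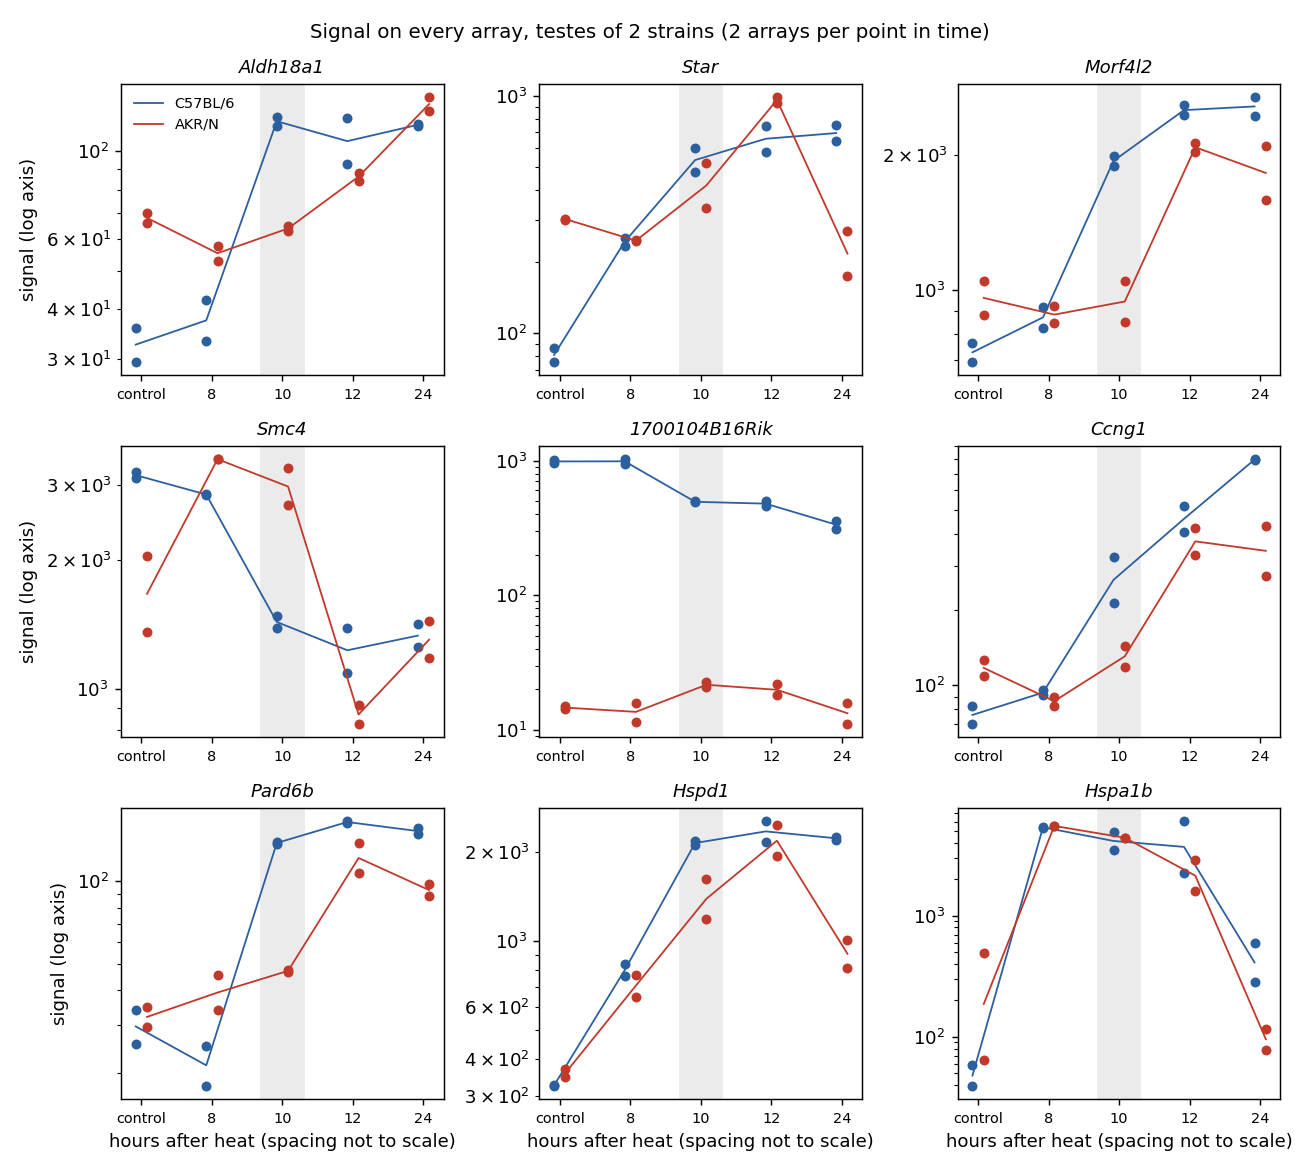
Signal on a log axis against group (unheated control and 8, 10, 12 and 24 h after heat, spacing not to scale) for 9 genes in C57BL/6 (blue) and AKR/N (red); each point is 1 array, lines join the group means taken on the log2 scale, and the grey band marks 10 h. Ccng1, Pard6b and Morf4l2 stand near control in AKR/N at 10 h and higher at 12 h, while Hspa1b is high in both strains from 8 h.

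Tests were made on log2(signal + 16), which understates the change of dim genes, with limma across 15762 genes, and a gene was called at a Benjamini-Hochberg adjusted p under 0.05. At 10 h 1764 genes were called as changed from control in C57BL/6 (11.2% of those tested), 946 higher and 818 lower. In AKR/N 414 genes were called (2.63%), 227 higher and 187 lower. The 2 strains shared 188 called genes, which is 45.4% of the AKR/N genes and 10.7% of the C57BL/6 genes, and 185 of these moved the same way. Changes of at least 2-fold were called for 217 genes in C57BL/6 and 122 in AKR/N. A gene called in a single strain is not thereby different between strains, which only the test of the difference shows.

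That test called 5 genes (0.0317% of those tested), 2 with a higher and 3 with a lower change in AKR/N. Without adjustment 1941 genes (12.3%) had p under 0.05, 843 higher and 1098 lower, and 20 (0.127%) had an adjusted p under 0.10. For the 5 called genes each of the 16 ways of taking 1 array per group gave the same sign, which held for 26.2% of all genes. At the other times the same test called 0 genes at 8 h (892 with unadjusted p under 0.05), 0 at 12 h (1477) and 277 at 24 h (1.76%; 3050).

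**Figure D2:**
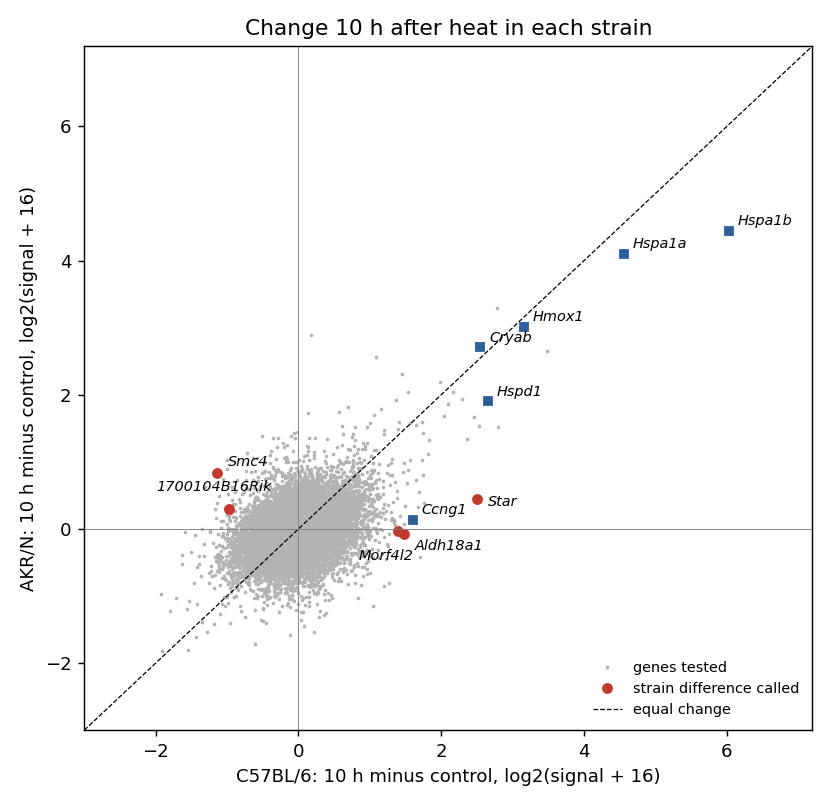
Change from control at 10 h on the log2(signal + 16) scale, C57BL/6 on the x axis and AKR/N on the y axis, with each tested gene a grey dot and the dashed line marking equal change. The 5 genes with a called strain difference are red circles, and blue squares name heat response genes, of which Hspa1a, Cryab and Hmox1 lie near the line and Ccng1 lies near 0 in AKR/N.

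On the probe sets tested the 5 genes were of 3 kinds. These were a rise in C57BL/6 with none called in AKR/N, a fall in C57BL/6 with a rise in AKR/N, and a transcript near the dim level in AKR/N. Morf4l2 (probe set 1456743_x_at), a chromatin protein of the MRG family, read 766 and 693 in C57BL/6 controls and 1990 and 1890 at 10 h. AKR/N arrays read 1050 and 882 in controls, 1050 and 850 at 10 h and 2030 and 2130 at 12 h. Heated and control arrays were fully apart in C57BL/6, and overlapped in AKR/N at 10 h. Morf4l2 rose by 1.39 in C57BL/6 (log2), the AKR/N change was -0.03, and the difference was -1.42 (SE 0.22, adjusted p = 0.046). Its other 3 probe sets gave differences of -1.14, -1.55 and -1.35. The ending x_at marks a probe set whose probes can match further transcripts, here and for the next gene.

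Aldh18a1 (1437325_x_at), which makes the precursor of proline and ornithine from glutamate, read 29.4 and 35.9 in C57BL/6 controls and 122 and 116 at 10 h. In AKR/N it read 69.8 and 66.0 in controls, 64.8 and 62.9 at 10 h, 84.3 and 88.3 at 12 h and 126 and 137 at 24 h. The AKR/N controls stood above the C57BL/6 controls, and the AKR/N arrays reached the C57BL/6 10 h level only at 24 h among the times sampled. The change was 1.48 in C57BL/6 and -0.07 in AKR/N, a difference of -1.55 (SE 0.19, adjusted p = 0.018). The 4 other probe sets of the gene gave -0.58, -0.22, -0.49 and 0.05, so the size of the difference depends on the probe set.

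Star (1418729_at) carries cholesterol into the mitochondria, the step that limits steroid synthesis in Leydig cells. In C57BL/6 it read 87.0 and 75.7 in controls, 234 and 252 at 8 h and 602 and 477 at 10 h. AKR/N controls read 304 and 301, and the later arrays 246 and 245 at 8 h, 521 and 337 at 10 h and 988 and 932 at 12 h. The strains overlapped at 10 h but were far apart in controls, where AKR/N was higher by 1.71 (SE 0.22, adjusted p = 0.000245). Star rose by 2.51 in C57BL/6 against a change of 0.45 in AKR/N (adjusted p = 0.286), a difference of -2.05 (SE 0.31, adjusted p = 0.045). Its other probe sets gave differences of -0.84 and -0.70, with changes of 1.5 and 1.0 in AKR/N and of 2.34 and 1.7 in C57BL/6, so the AKR/N change depended on the probe set.

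Smc4 (1427275_at), a core subunit of the condensin complex that compacts chromosomes, read 3120 and 3220 in C57BL/6 controls and 1480 and 1390 at 10 h. AKR/N read 1360 and 2050 in controls, 3460 and 3450 at 8 h, 2700 and 3290 at 10 h and 917 and 826 at 12 h. AKR/N was thus low in controls, high at 8 and 10 h and low again at 12 h, whereas C57BL/6 was high until 8 h and low from 10 h on. It fell by 1.13 in C57BL/6 and rose by 0.83 in AKR/N, a difference of 1.96 (SE 0.26, adjusted p = 0.026). The other probe sets gave differences of 0.55 and 0.24, with changes of -0.12 and -0.21 in C57BL/6 and of 0.44 and 0.03 in AKR/N. The size of the fall and of the rise thus depended on the probe set.

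The uncharacterised transcript 1700104B16Rik (1453508_at) read 1010 and 964 in C57BL/6 controls and 489 and 500 at 10 h. All 10 AKR/N arrays lay between 11 and 22.6, at or near the dim level, so a fall like that of C57BL/6 could not have been read there. The difference of 1.27 (SE 0.18, adjusted p = 0.033) is made up of a fall by 0.97 in C57BL/6 and an AKR/N change of 0.30 at the dim level (adjusted p = 0.229).

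Control levels entered these differences. In controls 991 genes differed between strains (6.29%), and 4 of the 5 genes were among them, all but Morf4l2, as were 9 of the 20 genes with an adjusted p under 0.10. The 5 calls also rested on the fit to all 20 arrays. With only the 8 arrays of the 4 groups 0 genes were called, as was the case without AKR/N 10 h replicate 2, AKR/N control replicate 1, C57BL/6 10 h replicate 1 or 2, or C57BL/6 control replicate 1. The count was 5 without AKR/N 10 h replicate 1, 4 without AKR/N control replicate 2 and 2 without C57BL/6 control replicate 2. Averaging all probe sets of a gene took the calls from Aldh18a1 (-0.56), Smc4 (0.92) and Star (-1.20), and left Morf4l2 (-1.36) and 1700104B16Rik (1.27) called. The count stayed at 5, with 2 higher and 3 lower, as other genes were gained, among them Pard6b (-1.4, adjusted p = 0.025).

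Behind the 5 genes stood 15 with an adjusted p between 0.05 and 0.10, which did not pass the test, chosen after their values were seen. The polarity protein gene Pard6b came closest. It read 25.6 and 33.9 in C57BL/6 controls and 139 and 137 at 10 h, and in AKR/N 34.9 and 29.3 in controls, 46.7 and 47.6 at 10 h and 138 and 107 at 12 h. At 10 h the strains were fully apart, and by 12 h AKR/N had reached the C57BL/6 10 h level on 1 array and come near it on the other. The difference at 10 h was -1.36 (SE 0.21, adjusted p = 0.053), and the other probe set gave -1.44.

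Slc16a1, a lactate and pyruvate transporter, had a like course, at 223 and 227 in C57BL/6 controls and 525 and 470 at 10 h. In AKR/N it read 262 and 258 in controls, 282 and 246 at 10 h and 640 and 512 at 12 h (difference at 10 h -1.07, adjusted p = 0.093). Rragd, a GTPase of the amino acid signal to mTORC1, read 237 and 215 in C57BL/6 at 10 h and 69.3 and 83.4 in AKR/N, and 201 and 151 in AKR/N at 12 h (difference -1.39, adjusted p = 0.093, with 0.60 in another probe set, of the opposite sign). Other genes ran the opposite way. Abcb8, a mitochondrial transporter, differed by 1.55, Dcst1 by 1.5, Trpc4ap by 1.28, Dhrs7b by 1.25 and Nelfa, a subunit of the complex that pauses RNA polymerase II, by 1.07. Trpc4ap read 250 and 339 in C57BL/6 controls and 212 and 237 at 10 h, and 217 and 228 in AKR/N controls and 440 and 430 at 10 h. Of the 20 genes below 0.10, 16 were called in C57BL/6 at 10 h, 7 in AKR/N and 3 in both.

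Of 26 measured heat shock chaperones, co-chaperones and small heat shock proteins 15 rose in C57BL/6 (6% of all genes) and 11 in AKR/N (1.44% of all genes), none fell, and none was called as different between strains. Their median change was 0.52 in C57BL/6 and 0.44 in AKR/N, against -0.00 and -0.03 over all genes. The small heat shock protein Hspb1 rose by 2.17 and 2.04, Cryab by 2.54 and 2.71, and Hsph1, a nucleotide exchange factor for HSP70, by 1.40 and 1.49. The intervals of their strain differences ran from -0.58 to 0.33, from -0.54 to 0.87 and from -0.44 to 0.61 (95%). Other probe sets gave differences of -0.49 for Hspb1, 0.69 and 0.10 for Cryab and -0.44 for Hsph1. On that probe set Hsph1 changed by 2.84 in C57BL/6 and 2.40 in AKR/N, so the sizes depended on the probe set.

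The HSP70 genes were high from 8 h in both strains. Hspa1b read 5310 and 5450 at 8 h in C57BL/6 and 5520 and 5520 in AKR/N. Its difference at 10 h was -1.58 (SE 0.93, adjusted p = 0.53), and AKR/N control replicate 2, at 493, decided its size: the difference was -0.25 without that array and -2.91 without the other control. Hspa1a, with 383 on the same array against 85.2 on the other, had a difference of -0.45 (SE 0.95). The 2 genes are near-identical copies, so their probe sets may read both and their separate values are uncertain.

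The mitochondrial chaperonin pair stood somewhat lower in AKR/N at 10 h. Hspe1, the HSP10 lid, read 419 and 348 in C57BL/6 controls, 2240 and 2310 at 10 h and 2800 and 3300 at 12 h. Its AKR/N signals were 556 and 550 in controls, 1830 and 1450 at 10 h and 3460 and 3050 at 12 h. The 10 h arrays of the strains did not overlap, and the difference was -1.0 (SE 0.27, adjusted p = 0.191). Its partner Hspd1 (HSP60) read 2110 and 2170 in C57BL/6 and 1620 and 1190 in AKR/N at 10 h (difference -0.75, adjusted p = 0.239). Hspa8, the constitutive HSP70, rose by 1.83 and 1.32 (difference -0.51, adjusted p = 0.234). Hsp90aa1 and Dnajb1 were not called in either strain, at -0.01 and -0.18 and at -0.04 and 0.37, and the other probe sets of Hsp90aa1 gave differences of 0.36, -0.32 and 0.87.

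Of 29 measured immediate early and inflammatory genes 13 rose in C57BL/6 (6% of all genes) and 10 in AKR/N (1.44% of all genes) at 10 h, none fell, and the median changes were 0.78 and 1.0. The stress transcription factor Atf3 rose by 2.79 and 3.29, and Jun by 1.44 and 2.31. Jun read 126 and 228 in C57BL/6 and 323 and 388 in AKR/N at 10 h, from controls of 50.9 and 53.9 and of 59.3 and 57.7. The AKR/N arrays were the higher ones, and the difference of 0.87 was not called (SE 0.46, adjusted p = 0.48). Myc was below the dim level in controls and in C57BL/6, with 4.48 and 5.64 at 10 h, and read 17.6 and 27.6 in AKR/N at 10 h (difference 0.93, adjusted p = 0.244). Socs3, which damps cytokine signals, read 20.9 and 77.7 in C57BL/6 and 121 and 249 in AKR/N (difference 1.48, SE 0.82, not called). Its other probe sets gave differences of 2.12 and 1.03, with changes of 0.06 and 1.36 in C57BL/6 and of 2.18 and 2.39 in AKR/N. The C57BL/6 change of Socs3 thus depended on the probe set. Egr1 moved from 66.0 and 69.5 to 596 and 1410 in C57BL/6, and from 461 and 214 to 1560 and 2730 in AKR/N, where the change of 2.65 missed the call (adjusted p = 0.067).

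Of 22 measured targets of p53, 9 rose and 1 fell in C57BL/6 at 10 h, where 6% of all genes rose, and 3 rose in AKR/N, where 1.44% did. The difference between these counts was not tested. By 12 h 10 had risen in AKR/N (3.8% of all genes). The median change was 0.58 in C57BL/6 at 10 h, and in AKR/N -0.06 at 8 h, 0.23 at 10 h and 0.79 at 12 h. The difference at 10 h was below 0 for 17 of the 22, against 8333 of all 15762 genes, and none was called. Like shares were seen in other lists, with 15 of 19 for spermatogonia and 14 of 17 for hypoxia and glycolysis, while DNA repair had 5 of 19. The median difference of the p53 targets was -0.18, against -0.03 over all genes.

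Within that list Ccng1 differed most, by -1.46 (SE 0.31, adjusted p = 0.137), with -0.15 and -0.60 in its other probe sets. On those the AKR/N changes were 0.46 and 0.40, against 0.62 and 1.0 in C57BL/6, so the AKR/N change depended on the probe set. Cdkn1a, the cell cycle inhibitor p21, read 66.3 and 45.1 in C57BL/6 controls and 383 and 315 at 10 h. AKR/N stood at 56.6 and 59.9 in controls, 220 and 133 at 10 h and 668 and 521 at 12 h. It rose in both strains, by 2.36 and 1.34, and the 10 h arrays did not overlap between strains, but the difference of -1.02 was not called (SE 0.36, adjusted p = 0.281) and another probe set gave 0.01. The growth arrest gene Gadd45a, at 60.2 and 64.5 in C57BL/6 and 60.0 and 40.7 in AKR/N at 10 h, started from 16.8 and 14.1 and from 33.7 and 33.6 (difference -0.92, adjusted p = 0.182). Gadd45b and Btg2, also on the list, rose in both strains, by 0.76 and 1.0 and by 2.46 and 1.66.

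No Sertoli cell gene was called as different between strains at 10 h, and most differences lay below 0. Of 20 measured members 5 rose in C57BL/6 (6% of all genes) and 0 were called in AKR/N (2.63% of all genes). In AKR/N 5 had an unadjusted p under 0.05, as had 2915 of all 15762 genes. The difference between these counts was not tested. The strain difference was below 0 for 17 of the 20, against 8333 of all 15762 genes. Like shares were seen in other lists, with 22 of 26 for elongating spermatids and 16 of 19 for extracellular matrix and wound response. Others had lower shares, such as 9 of 20 for the unfolded protein and integrated stress response. The median strain difference of the Sertoli cell genes was -0.28, against -0.03 over all genes. Kitl, the stem cell factor that Sertoli cells present to spermatogonia, read 161 and 207 in C57BL/6 controls and 463 and 327 at 10 h. In AKR/N it read 95.5 and 87.2 in controls, 67.2 and 75.7 at 10 h and 211 and 125 at 12 h. Its difference of -1.32 (SE 0.32, adjusted p = 0.169) was not called, and its other 3 probe sets gave 0.19, -0.53 and -0.94. Sox9, the Sertoli cell transcription factor, read 176 and 158 in C57BL/6 and 102 and 86.1 in AKR/N at 10 h, and 196 and 147 in AKR/N at 12 h (difference -0.72, adjusted p = 0.223), and its other probe sets gave -0.13 and 0.06. The secreted chaperone clusterin (Clu) read 5760 and 6000 in C57BL/6 and 4570 and 4680 in AKR/N at 10 h (difference -0.50, adjusted p = 0.195), and its other probe sets gave -0.10, -0.66 and -0.63. In RNA of whole testes, fewer cells of a type and less RNA per cell cannot be told apart.

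Among 9 Leydig cell genes 3 rose in C57BL/6 (6% of all genes) and 1 in AKR/N (1.44% of all genes). Star was the 1 called as different (0.0317% of all genes), and the difference between the counts of rises was not tested. Cyp11a1, which makes pregnenolone from cholesterol, rose in both strains on the probe set tested, from 257 and 265 to 528 and 609 and from 438 and 483 to 727 and 764 (difference -0.39, adjusted p = 0.49). Its other 2 probe sets gave AKR/N changes of -0.31 and -0.78, of the opposite sign, and differences of -0.46 and -1.23. Cyp17a1 read 1860 and 1900 in C57BL/6 and 3190 and 3080 in AKR/N at 10 h, from 1200 and 1020 and from 2230 and 2350 (difference -0.31, adjusted p = 0.696). For both enzymes AKR/N was the higher strain already in controls, by 0.78 (adjusted p = 0.00704) and 1.04 (adjusted p = 0.00468). The summed signal of 4 Leydig markers was 3422 to 3646 in AKR/N controls and 1536 to 1757 in C57BL/6 controls, and 4539 to 4831 and 3158 to 3168 at 10 h. Star, Cyp11a1 and Cyp17a1 are themselves among the 4, so the sum is no separate measure of Leydig cells. The part of these levels in the Star difference was not tested.

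Genes of mitotic and meiotic division mostly had differences above 0, and none was called. Of 22 measured members 3 fell in C57BL/6 (5.19% of all genes) and 0 were called in AKR/N at 10 h (2.63% of all genes). In AKR/N 0 had an unadjusted p under 0.05, against 2915 of all 15762 genes. Their median change was -0.31 in C57BL/6 at 10 h, and 0.07 in AKR/N at 10 h and -0.28 at 12 h, and the difference at 10 h had a median of 0.24, with 4 of the 22 below 0. Among DNA repair genes that difference lay below 0 for 5 of 19. Cdk1, the mitotic kinase, fell from 478 and 557 to 269 and 252 in C57BL/6, and in AKR/N read 441 and 511 in controls and 315 and 486 at 10 h (difference 0.68, adjusted p = 0.376). Bub1b, a spindle checkpoint kinase, fell from 268 and 356 to 180 and 182 in C57BL/6, and in AKR/N read 393 and 400 in controls, 373 and 369 at 10 h and 208 and 305 at 12 h (difference 0.63, adjusted p = 0.358). The kinesin Kif11 and the kinases Aurka and Nek2 had differences of 0.84, 0.74 and 0.71, none of them called. Other probe sets gave -0.08 and 0.56 for Bub1b, 0.04 and 0.48 for Kif11, and 0.55, -0.43 and 0.17 for Nek2.

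The pachytene gene Pou5f2 read 295 and 306 in C57BL/6 controls and 122 and 136 at 10 h. The AKR/N arrays read 326 and 311 in controls, 276 and 211 at 10 h and 152 and 151 at 12 h (difference 0.75, adjusted p = 0.204). The strains were apart at 10 h, and AKR/N stood near the C57BL/6 10 h level at 12 h. Of the 23 pachytene genes measured 2 rose (6% of all genes) and 6 fell (5.19% of all genes) in C57BL/6 at 10 h. In AKR/N 0 were called (2.63% of all genes) and 6 had an unadjusted p under 0.05 (2915 of all 15762 genes). By 12 h 1 had risen (3.8% of all genes) and 4 had fallen (3.2% of all genes) in AKR/N. The difference between the counts of the strains was not tested.

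Among the antioxidant genes no strain difference was called. Gclc, the catalytic subunit of glutathione synthesis, read 269 and 297 in C57BL/6 controls and 285 and 249 at 10 h, and in AKR/N 102 and 153 in controls and 289 and 311 at 10 h. On this probe set the strains were level at 10 h and apart in controls, and the difference was 1.24 (SE 0.29, adjusted p = 0.162), whereas another probe set gave -0.03, with changes of -0.17 in AKR/N and -0.14 in C57BL/6. Hmox1, which breaks down haem, rose alike, by 3.16 and 3.01. Interferon-stimulated genes had a median change of 0.32 in C57BL/6 and 0.04 in AKR/N, with 1 of 14 called as a rise in C57BL/6 (Oasl2, 1.18; 6% of all genes) and 0 in AKR/N (1.44% of all genes; 0 with unadjusted p under 0.05), shares near those of all genes. Vim, an intermediate filament of somatic cells, read 1080 and 980 in C57BL/6 and 713 and 717 in AKR/N at 10 h, and 1490 and 1260 in AKR/N at 12 h (difference -0.88, adjusted p = 0.142).

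**Figure D3:**
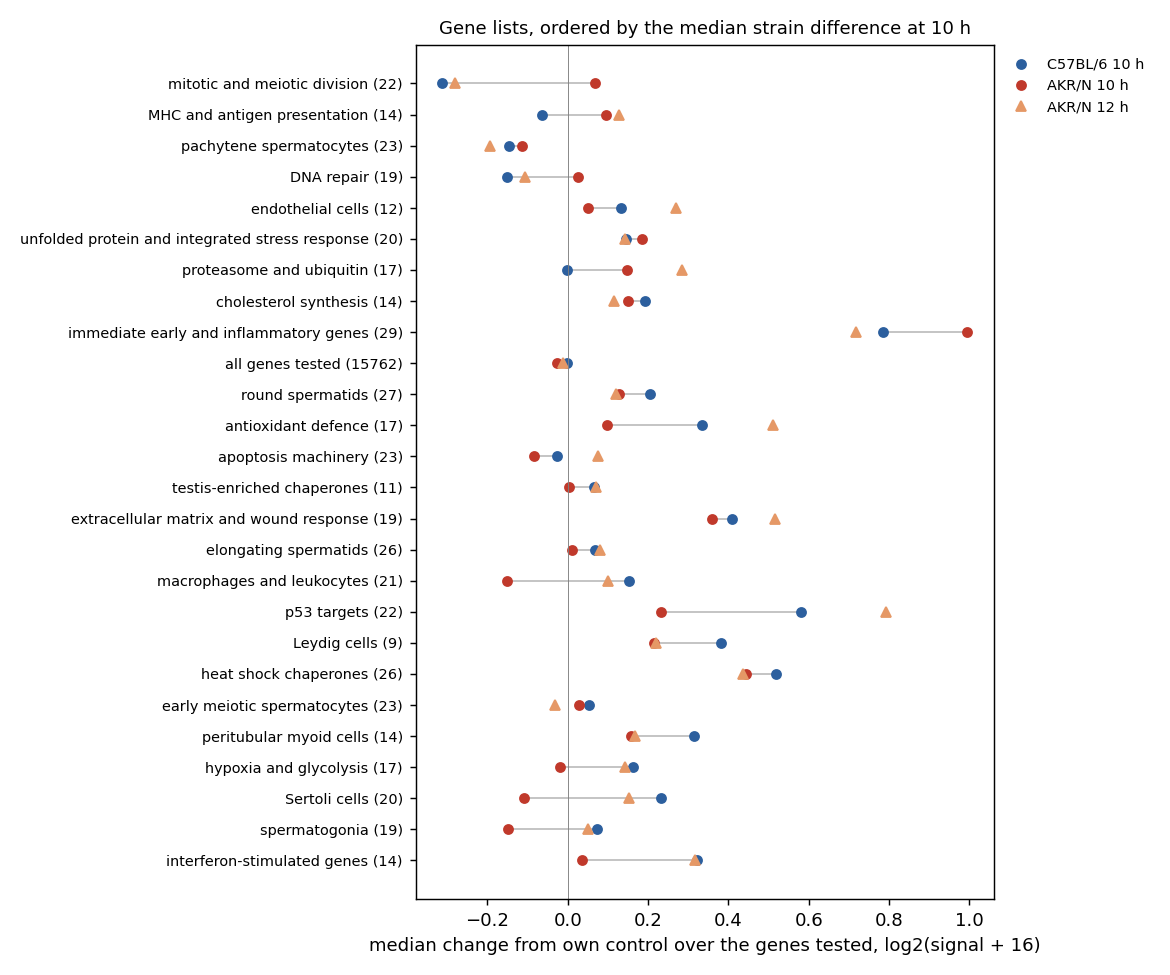
Median change from the strain's own control for each gene list (number of genes tested in brackets), on the log2(signal + 16) scale, for C57BL/6 at 10 h (blue), AKR/N at 10 h (red) and AKR/N at 12 h (orange triangles), ordered by the median strain difference at 10 h. For p53 targets the medians were 0.58, 0.23 and 0.79, for mitotic and meiotic division -0.31, 0.07 and -0.28, and for heat shock chaperones 0.52, 0.44 and 0.44.

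The question of a lag was put to all genes in 3 ways, with comparisons that share no array between strains. In the first, the changes from control were correlated between strains across the 15762 genes, which are not independent replicates. The AKR/N change at 10 h correlated with the C57BL/6 change at 10 h with Pearson's r of 0.404. At 12 h the AKR/N change correlated with the C57BL/6 change at 10 h with r of 0.572, and with that at 12 h with 0.582. The AKR/N change at 12 h also correlated with the C57BL/6 change at 24 h with r of 0.528, so a high r was not particular to C57BL/6 at 10 h. For the AKR/N change at 10 h, r was 0.176 with C57BL/6 at 8 h and 0.3 with C57BL/6 at 12 h, both below that at equal times. The AKR/N change at 8 h correlated with the C57BL/6 changes at 8 and 10 h with r of 0.25 and 0.0882. Taken array by array, the AKR/N 12 h arrays gave 0.535 and 0.493 against the C57BL/6 10 h mean, and the AKR/N 10 h arrays 0.40 and 0.301. The slope of AKR/N on C57BL/6 was 0.355 at 10 h, and 0.569 for AKR/N at 12 h on C57BL/6 at 10 h. With any 1 of the 4 control arrays left out, r was 0.344 to 0.406 at 10 h and 0.513 to 0.538 for AKR/N 12 h on C57BL/6 10 h. The difference between these correlations was not tested.

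**Figure D4:**
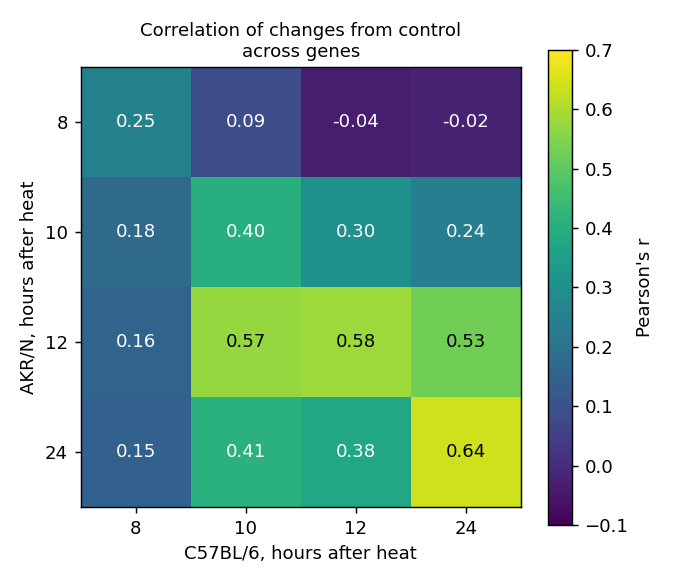
Pearson's r across genes between the change from control in AKR/N (y axis, 8 to 24 h) and in C57BL/6 (x axis, 8 to 24 h). The squares above C57BL/6 10 h read 0.0882, 0.404, 0.572 and 0.412 from 8 to 24 h in AKR/N.

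In the second, the genes called in C57BL/6 at 10 h were read on the AKR/N arrays, whose changes did not enter the choice, although all 20 arrays share the estimate of the spread, the filter on dim genes and the choice of probe sets. For the 946 that rose, the median AKR/N change was 0.01 at 8 h, 0.25 at 10 h, 0.41 at 12 h and 0.46 at 24 h, against C57BL/6 medians of 0.14, 0.66, 0.65 and 0.83. The share above 0 in AKR/N went from 53.9% at 8 h to 82.6% at 10 h and 93.6% at 12 h, where 42.6%, 46.4% and 48.4% of all genes were above 0. Called rises in AKR/N numbered 4 of the 946 at 8 h, 114 at 10 h, 335 at 12 h and 484 at 24 h, where 0.0254%, 1.44%, 3.8% and 12.3% of all genes were called as rises. For the 818 that fell, the median AKR/N change was -0.01, -0.28, -0.45 and -0.46, against -0.10, -0.68, -0.74 and -0.95 in C57BL/6.

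The reverse reading started from the genes called in AKR/N at 10 h, with medians of 0.86 and -0.73 there. For the 227 that rose the C57BL/6 medians were 0.08, 0.56, 0.44 and 0.57 from 8 to 24 h, and for the 187 that fell -0.06, -0.39, -0.29 and -0.37. Values at 10 h in the strain used for choosing run high by that choice, so a smaller change in the other strain is built into each set. By itself, 1644 of the 1764 C57BL/6 genes having a smaller change in AKR/N is therefore no measure of a lag.

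**Figure D5:**
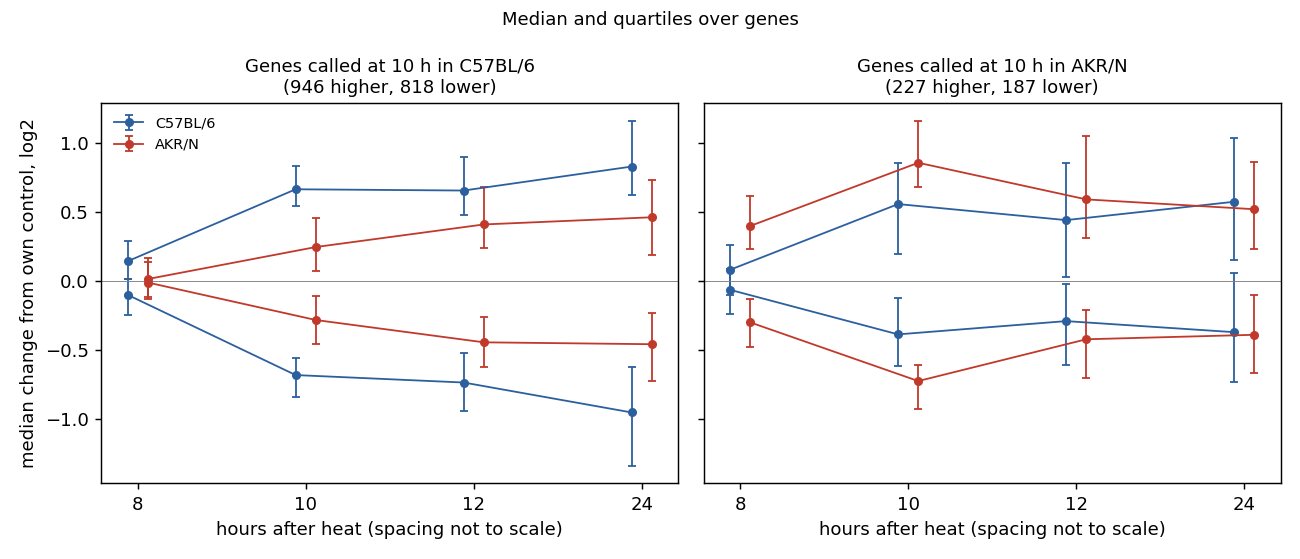
Median change from control with quartiles over genes, log2(signal + 16), against hours after heat (spacing not to scale), for genes chosen by their call at 10 h in C57BL/6 (946 higher, 818 lower) and in AKR/N (227 higher, 187 lower). Among the genes chosen in C57BL/6 the AKR/N medians lie at 0.25 and -0.28 at 10 h and 0.41 and -0.45 at 12 h.

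In the third, steps between successive times were used, which need no control arrays. From 8 to 10 h C57BL/6 changed 1390 genes (8.82%), 767 up and 623 down, and AKR/N changed 1 (0.00634%; 2205 with unadjusted p under 0.05). That gene, named after its values were seen, was Ube2s, a ubiquitin-conjugating enzyme of the anaphase-promoting complex. It read 3780 and 3650 at 8 h and 1030 and 1290 at 10 h in AKR/N, and 4080 and 3730 and 1680 and 1220 in C57BL/6. From 10 to 12 h the order was the other way round, with 0 genes changed in C57BL/6 (1429 with unadjusted p under 0.05) and 317 in AKR/N (2.01%), 208 up and 109 down.

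Tested as a difference between strains, the step from 8 to 10 h was called for 2 genes (0.0127%; 1052 with unadjusted p under 0.05), Pard6b at -1.85 (SE 0.21, adjusted p = 0.011) and 1700104B16Rik at 1.32 (SE 0.18, adjusted p = 0.031). The step from 10 to 12 h was called for 0 genes (1136 with unadjusted p under 0.05). The large gap between the counts within strains was thus not matched by calls of the difference. These counts also hung on single arrays: the AKR/N 10 to 12 h count of 317 was 2 without AKR/N 12 h replicate 1, 92 without 12 h replicate 2, 57 without 10 h replicate 1 and 19 without 10 h replicate 2. The C57BL/6 8 to 10 h count was 71 without 8 h replicate 2, 221 and 365 without 10 h replicates 1 and 2, and 451 without 8 h replicate 1.

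Across genes the AKR/N step from 8 to 10 h correlated with the C57BL/6 step over the same hours with r of 0.433. The AKR/N step from 10 to 12 h correlated with the C57BL/6 step from 8 to 10 h with r of 0.264, and with that from 10 to 12 h with 0.255. Over the whole interval from 8 to 12 h the strains correlated with r of 0.653. On this reading the AKR/N step from 8 to 10 h was closest to the C57BL/6 step of the same hours.

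Setting the AKR/N change at 12 h directly against the C57BL/6 change at 10 h called 0 genes (0%), with 1125 at an unadjusted p under 0.05. The corresponding unadjusted counts were 1941 with both strains at 10 h and 1477 with both at 12 h, and since these comparisons share arrays they are given side by side. A missed call does not show that levels were alike. Of the 5 called genes, Aldh18a1 differed by -1.19, Star by -0.89, Morf4l2 by -0.29, Smc4 by 0.20 and 1700104B16Rik by 1.20 in this comparison. Hspe1 differed by -0.01, Ccng1 by -0.05, Slc16a1 by 0.00, Sox9 by 0.04 and Vim by 0.04, while Hspa1b differed by -2.61, Egr1 by -2.57 and Cyp17a1 by -1.01.

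The arrays behind these comparisons differed in a sign of RNA quality. The ratio of the 3' to the 5' probe set of the actin control was 1.87 and 1.99 on the AKR/N 10 h arrays and 1.91 and 1.93 at 8 h, against 2.92 and 2.39 in AKR/N controls and 2.74 and 2.62 at 12 h. In C57BL/6 it was 2.14 and 2.46 in controls, 2.04 and 2.0 at 8 h, 2.45 and 2.37 at 10 h and 2.52 and 3.57 at 12 h. The ratio thus moved with the AKR/N groups, lowest at 8 and 10 h, and its part in the strain differences and in the steps was not tested. Replicates correlated with r of 0.97 to 0.988, and the AKR/N 10 h pair had r of 0.978. Testis markers were above the dim level in all 4 groups for 6 of 7 Sertoli, 4 of 4 Leydig, 5 of 7 spermatogonial, 7 of 7 spermatocyte and 7 of 7 spermatid genes on the chip. The markers of T cells (Cd3g, Cd2), epididymis (Lcn5, Adam7) and red cells (Hba-a1) named here were dim in all 4 groups. Of the 3 T cell markers on the chip the remaining one was above the dim level in some of the 4 groups but not in all. The 3 summed to 18.7 to 23.3 in AKR/N controls and 35.1 to 48.6 at 10 h. In C57BL/6 they summed to 40.1 to 43.5 and 50.7 to 59.2, and their part in the strain differences was not tested. The other red cell marker on the chip, Alas2, was above the dim level in all 4, and the red cell pair summed to 54.5 to 109 over the 8 arrays. The fat cell marker Adipoq was above it as well, at 156 to 380, and the part of both in the strain differences was not tested. Macrophage markers summed to 728 to 850 in AKR/N controls and 784 to 855 at 10 h, and to 501 to 542 and 455 to 509 in C57BL/6, and their part in the strain differences was not tested.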

How the data were processed

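The deposited values are intensity signals of 45101 probe sets on each of 20 arrays; they are never negative, and the mean left after trimming 2% at either end came to 125.001 for each array. What software summarised and scaled the probes is not stated in the labels or headers used here. Detection calls and raw scanner files were not used here. Per the labels' protocols, Trizol RNA was labelled with a one-cycle 3' cDNA kit.

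Leaving out 64 control probe sets, 34945 probe sets had 1 annotated gene and were used, while 932 had several and 9160 none. No symbol changed on matching to RefSeq (0). Signals were taken as log2(signal + 16), a pseudocount of 16, and the probe set with the highest mean stood for each of 18193 genes. Genes whose highest group mean reached the 40th percentile, a signal of 17.5, were tested (15762). Limma 3.58.1 in R 4.3.3 (package data.table, version 1.17.8) fitted 1 mean per group to all 20 arrays (residual degrees of freedom 10, prior 3.54), with Benjamini-Hochberg adjustment over all tested genes at 0.05. The fit was tested on simulated data. Plots were drawn with matplotlib 3.10.9 in Python 3.11.15. The number of arrays limits the precision.

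The comparison, the 30 gene lists and the genes shown were chosen with earlier results of these data known. Genes to name were the called genes, a panel of heat response genes and the 3 members per list with the smallest p for the strain difference. Not all of them are given in the text. Values are missing for the panel genes Fos, Klf6, Ier3, Tnfrsf12a, Hspa2, Cd24a, Cirbp and Lef1, none of them called as different, and for some list members. Outside that rule, the genes with an adjusted p between 0.05 and 0.10, and Sox9, Cdk1, Bub1b, Socs3, Btg2, Gadd45b and Ube2s, were named after their values were seen. Alternatives covered the pseudocount, the filter, scaling, the probe set rule, the arrays fitted, a replicate block and each array left out. The tests of the step within each strain and the threshold of 0.10 were added after seeing the data.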

Additional observations from a re-analysis of the deposited data

Results flagged for a closer look

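Limma called the change at 10 h as different between strains for 5 genes, with AKR/N minus C57BL/6 on the log2 scale at 1.27 for 1700104B16Rik, -1.55 for Aldh18a1, -1.42 for Morf4l2, 1.96 for Smc4 and -2.05 for Star.

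For further genes every array of one strain moved one way and every array of the other the opposite way, while limma did not call the difference. The share of all tested genes with this pattern was not counted. A looser trait that it entails, the same sign in all 16 ways of taking 1 array per group, held for 26.2% of all genes. The genes below were picked by their p or from the lists, so the pattern is no added support for a strain difference. Among genes with an adjusted p under 0.10 the pattern was seen for Abcb8 (1.55), Aplnr (-1.86), Dhrs7b (1.25), Homer1 (-1.55), Klhl2 (-1.38), Med13l (-1.0), Nelfa (1.07), Spn (-1.09), Themis (-1.23) and Trpc4ap (1.28). Aplnr and Themis were dim on most arrays. Among genes of the lists they were higher in AKR/N for Parp1 (0.41), Cd74 (0.53), Cidec (1.19), Ier5 (0.65), Kif11 (0.84) and Acr (0.46). They were lower in AKR/N for Kitl (-1.32), Cat (-1.09), Cycs (-0.58), S100a6 (-0.84), Gbp2 (-1.06), Aif1 (-0.58), Cd53 (-0.79), Pdgfra (-0.74) and Mylk (-0.54). Other probe sets gave 0.51 for Spn, -0.13, -0.51 and 0.47 for Parp1, and 0.57, 0.56, -1.22 and -0.60 for Homer1. Signs thus differed between probe sets for these genes, as for Kitl above. Other probe sets above the dim level kept the sign for Abcb8, Med13l, Themis (-0.10), Cat, Cycs, Ier5, Gbp2, Kif11, Pdgfra and Mylk.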

How the results depend on the processing

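The 5 calls of the strain difference at 10 h became 1 with a pseudocount of 1, 23 with 64, 3 after quantile normalization, 1 after median centring, 0 with only the 8 arrays compared and 20 at an adjusted p under 0.10, and 0 to 5 with 1 array left out. No called gene turned its sign under the 16 settings run; 11 of 83 uncalled genes did under some setting. The calls of heat in C57BL/6 at 10 h (1764) became 1039 after median centring and 8 with only their own arrays, and 362 to 675 with 1 array left out. Those in AKR/N (414) became 780 with a pseudocount of 64, 201 after median centring and 1 with only their own arrays, and 33 to 183 with 1 left out. At 8 h the strain difference stayed at 0 calls under every setting; at 12 h it was 1 with a pseudocount of 64 and 0 to 1 with 1 array left out. At 24 h (277) it became 178 and 735 with pseudocounts of 1 and 64, 155 with no filter, 96 after median centring, 2 with only its own arrays and 906 at 0.10, and 2 to 122 with 1 array left out. AKR/N 12 h against C57BL/6 10 h (0) became 1 with a pseudocount of 64, and 0 to 1 with 1 left out.

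The difference of the step from 8 to 10 h (2) became 1 after median centring, 0 with only its own arrays and 0 to 1 with 1 left out; that from 10 to 12 h (0) became 2 with a pseudocount of 64, 1 with only its own arrays and 0 to 2 with 1 left out. Within AKR/N the 8 to 10 h step (1) became 126 with a pseudocount of 64, 0 with the mean of all probe sets, 0 with only its own arrays and 1 to 2 with 1 left out. The AKR/N 10 to 12 h step (317) became 182 and 701 with pseudocounts of 1 and 64, 120 after median centring and 1 with only its own arrays, and 2 to 92 with 1 left out. The C57BL/6 8 to 10 h step (1390) became 702 after median centring, 0 with only its own arrays and 71 to 451 with 1 left out, and the 10 to 12 h step (0) 0 to 14. Leaving out an array leaves a group with 1, which is assumed to vary like the others, and fits to the arrays compared have few residual degrees of freedom. Median centring moved the share of rises among calls from 54.8% to 63.7% for heat in AKR/N, from 53.4% to 68.8% for the strain difference at 24 h and from 55.2% to 41.6% for the C57BL/6 8 to 10 h step. The cause of these shifts was not tested.

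Replicate numbers were not used as pairs in the main fit. Deviations from group means correlated with r of -0.194 to 0.186 in the 6 pairs of the 4 groups compared. With 2 arrays per group these values cannot show whether the samples were paired. With the replicate block the strain difference had 2 calls at 10 h and 157 at 24 h, the 8 to 10 h step difference 1 and the AKR/N 10 to 12 h step 196.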
